A study of Rattus norvegicus with 12 samples.

Results

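The genes of 10 basement membrane components were followed across the semilunar valves and the proximal aorta of adult and neonatal rats. They were the laminin chains Lama2, Lama4, Lamb1, Lamb2 and Lamc1, the nidogens Nid1 and Nid2, the type IV collagen chains Col4a1 and Col4a2, and Hspg2, which encodes perlecan. Every probe set whose only gene symbol in the array's annotation was one of these names was taken, which gave 14 probe sets for the 10 genes. The array named 14217 genes in that way. All 14 probe sets passed the filter on low signal and were among the 18552 probe sets tested.

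A basement membrane is the thin sheet of matrix under endothelium and around smooth muscle cells. It is built from a laminin network, in which each molecule joins an alpha, a beta and a gamma chain, and from a type IV collagen network, whose most widespread molecule joins chains encoded by Col4a1 and Col4a2. Nidogens bind laminin and type IV collagen, and perlecan is a large heparan sulphate proteoglycan that binds both networks. In the vessel wall these proteins surround endothelial and smooth muscle cells, and in a valve leaflet they underlie the endothelium that covers it.

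The samples came from Wistar rats and formed 4 groups of 3 arrays by their titles. These were semilunar valves (aortic and pulmonary) of adults, semilunar valves of neonates, the proximal aorta of adults and the proximal aorta of neonates. The adults were labelled male, neonatal tissue was taken no more than 24 h after birth, and no label names a treatment or a genotype. No source used here gives the age of the adults or says whether an array held 1 animal or pooled tissue. The p-values therefore measure the spread between these samples, which may be in part technical. Values are signals on a linear scale, 1 per probe set and array, and differences are on the log2 scale with the standard error of the fit (n = 3 arrays per group). Signals of different probe sets do not share a scale, so levels were not compared between genes. Each sample was a piece of tissue, and fewer cells of a type cannot be told apart from less RNA per cell.

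The labels of 6 arrays contradicted themselves: the 3 titled adult aorta were entered as neonatal valve in the tissue field and the description, and for the 3 neonatal valve titles those fields read adult aorta. Titles and source names matched each other and set the groups here. Had the tissue entries been followed, the age comparison in aorta would exchange places with the neonatal comparison of the tissues, and the age comparison in valve with the adult one. Summed signals of 5 cell cycle genes were 498 to 2858 on the arrays titled adult aorta and 9173 to 13513 on those titled neonatal valve, beside 351 to 2664 on adult valve arrays and 7782 to 9406 on neonatal aorta arrays. All 6 cardiac muscle markers on the array lay at or below the filter threshold on every array titled adult aorta. Xist, a transcript of female cells, gave signals of 12355 to 18362 on the adult valve arrays labelled male and 10998 to 15809 on neonatal valve arrays, against 5.08 to 297 on aorta arrays, so tissue and this difference cannot be told apart.

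The smooth muscle markers (6 of 6 on the array) summed to 1559.7 to 37717 in adult valves, 7501 to 11459.6 in neonatal valves, 19195 to 119863 in adult aortas and 25329 to 38329.8 in neonatal aortas. The endothelial markers (7 of 8 on the array, none dim throughout a group) summed to 11893 to 35856, 8334 to 11905, 4283 to 8749 and 9566 to 11925 in the same order of groups. A sum leans on its brightest probe sets, and these markers did not move together. Tek had 4419, 7267 and 16258 in adult valves, against 4391, 2237 and 2979 in neonatal valves. Kdr went the other way, with 1221, 1114 and 530 in adult valves, against 2780, 2269 and 1624 in neonatal valves. The cardiac muscle markers (6 of 7 on the array) summed to 3777 to 80697 in adult valves, 58764 to 86607 in neonatal valves, 202 to 235 in adult aortas and 31082 to 54212 in neonatal aortas, so that heart muscle RNA differed with age in the aorta and with tissue in adults. Among adult valves the second array gave the 80697, against 10528 and 3777 on the others. Of the smooth muscle markers only Lmod1 was at or below the threshold on all arrays of a group, the neonatal valves. The first adult aorta array stood apart from its group, with smooth muscle markers at 19195, against 90149.9 and 119863 on the other arrays, and skeletal muscle markers (5 of 6 on the array) at 134508, against 1999 and 2869. It had the lowest signal of its group for 13 of the 14 probe sets. The squamous epithelium markers (4 of 4 on the array) summed to 86586 on that array and 40930.2 on the second neonatal aorta array, against 320 to 3439 on the other aorta arrays. The thymocyte markers (3 of 5 on the array) summed to 19544 on the third neonatal valve array, against 1531 and 279 on the other neonatal valve arrays, and that array was the lowest of its group for 9 of the 14. The third adult valve array had smooth muscle markers at 1559.7, against 37717 and 24289.9, and was the lowest of its group for 10 of the 14. The same arrays had the smallest limma quality weights, 0.188 and 0.346. The part of these marker differences in the results was not tested, and the results are given with and without both arrays.

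Col4a1 and Col4a2 are neighbours on rat chromosome 16 and are read in opposite directions. In the GRCr8 assembly Col4a1 runs from chr16:84885597-84996482 on the plus strand and Col4a2 from chr16:84749672-84885520 on the minus strand, with 76 bases between the gene spans. The windows from 250 bases before to 50 bases after each start overlap, and they are shown because both genes then have 1 promoter stretch in common. Each is printed 5′ to 3′ on its own gene's strand from the RefSeq table of GRCr8, with the 176 shared bases (chr16:84885471-84885646) in capitals. The capitals of one are the reverse complement of the capitals of the other.
Col4a1: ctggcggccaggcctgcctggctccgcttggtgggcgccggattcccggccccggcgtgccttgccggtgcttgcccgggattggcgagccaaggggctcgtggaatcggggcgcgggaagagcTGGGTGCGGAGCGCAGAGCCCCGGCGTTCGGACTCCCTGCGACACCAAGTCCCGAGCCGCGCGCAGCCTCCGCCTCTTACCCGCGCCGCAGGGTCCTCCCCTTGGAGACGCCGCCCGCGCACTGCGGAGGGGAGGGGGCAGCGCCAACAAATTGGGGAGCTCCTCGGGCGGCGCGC
Col4a2: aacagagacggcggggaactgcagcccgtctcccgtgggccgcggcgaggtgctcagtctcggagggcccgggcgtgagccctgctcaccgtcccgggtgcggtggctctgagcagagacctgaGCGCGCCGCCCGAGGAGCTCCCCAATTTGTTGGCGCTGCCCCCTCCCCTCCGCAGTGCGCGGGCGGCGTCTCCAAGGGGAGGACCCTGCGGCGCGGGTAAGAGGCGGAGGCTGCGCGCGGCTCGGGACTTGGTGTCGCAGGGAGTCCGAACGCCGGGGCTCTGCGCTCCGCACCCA
The Col4a1 window covers chr16:84885347-84885646 and the Col4a2 window chr16:84885471-84885770. Searched on both strands, the shared stretch held 1 CCAAT (the CCAAT box) and 2 GGGCGG (the GC box), and no TATAAA (the TATA box). Of all 33469 windows of this length, 37.5% held CCAAT, 33.1% held GGGCGG and 14.2% held TATAAA. Among the 8 member genes with a window in the table, 4 held CCAAT (Lama2, Nid1, Col4a1 and Col4a2), 7 held GGGCGG (all but Lama4) and 1 held TATAAA (Lama4). A match is a description of letters and not evidence of a bound factor.

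Type IV collagen was lower in adult than in neonatal valves at all 3 of its probe sets. Col4a2 had signals of 991, 611 and 349.7 in adult valves, against 2819.6, 2884 and 2525 in neonatal valves. Of the pair of probe sets for Col4a1, 1373245_at gave 1678, 1325 and 884 in adult valves, against 4918, 4784 and 3897 in neonatal valves. The other, 1372439_at, gave 1702, 1206 and 501 in adult valves, against 6511, 6541 and 5089 in neonatal valves. No adult valve array reached any neonatal valve array at these probe sets. Col4a2 fell 4.59-fold (log2 difference -2.20 ± 0.47, limma with Benjamini-Hochberg adjusted p = 0.017). Col4a1 fell 3.60-fold by 1373245_at (-1.85 ± 0.50, adjusted p = 0.042) and 5.95-fold by 1372439_at (-2.57 ± 0.67, adjusted p = 0.038). The 3′ to 5′ signal ratio of a control transcript rises where labelled RNA lacks its 5′ part. For beta-actin and GAPDH it also differed by age in valve without overlap. For beta-actin it was 13.99, 10.6 and 12.7 on adult valve arrays, against 7.24, 7.86 and 8.84 on neonatal valve arrays. For GAPDH it was 3.88, 2.78 and 5.13 on adult valve arrays, against 1.97, 2.10 and 2.60 on neonatal valve arrays. For dap, a control RNA added before labelling, the ages overlapped, at 21.4, 19.1 and 20.0 on adult and 21.5, 17.9 and 16.5 on neonatal valve arrays. The part of these ratios in the age differences of the valve was not tested.

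In the aorta the same probe sets did not pass the test by age. Col4a2 had signals of 681, 2448 and 2215 in adult aortas, against 3789.6, 3841 and 5129 in neonatal aortas. Col4a1 had 1223, 5719 and 5373 in adult aortas, against 9059.95, 9266 and 13133 in neonatal aortas, by 1373245_at. By 1372439_at it had 733, 5055 and 5619 in adult aortas, against 7891, 7963 and 9911 in neonatal aortas. The neonatal aortas were all above the adult ones, and the first adult aorta array lay far below the other adult arrays at all 3 probe sets. The log2 differences were -1.45 ± 0.47 for Col4a2 (adjusted p = 0.086), and for Col4a1 -1.62 ± 0.50 (adjusted p = 0.073) and -1.63 ± 0.67 (adjusted p = 0.17).

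The calls on type IV collagen in valve were not stable to leaving out arrays, and not only the third adult valve array. When each of the 6 valve arrays was left out in turn, Col4a1 by 1373245_at failed in every case (adjusted p = 0.066 to 0.12), Col4a1 by 1372439_at in all but 1, and Col4a2 without neonatal valve 1, neonatal valve 2 or adult valve 3 (adjusted p = 0.061, 0.054 and 0.052). Without the third adult valve array the differences between adult and neonatal valves were -1.81 for Col4a2 (adjusted p = 0.052) and -1.60 and -2.07 for Col4a1 (adjusted p = 0.12 and 0.11), none past the threshold, while 6.13% of all probe sets were called. With the first adult aorta array left out as well, the same 3 differences passed (adjusted p = 8.0e-04, 8.8e-04 and 2.0e-04). That array is not part of the valve comparison and acts on it only through the spread, which the fit estimates over all groups. The differences themselves did not grow by its removal. In that setting the aorta differences by age also passed, at -0.85 for Col4a2 (adjusted p = 0.028) and -0.90 and -0.68 for Col4a1 (adjusted p = 0.015 and 0.042). This setting was chosen after the data were seen, and it raised the share of all probe sets called to 15.4% in valve and 19.0% in aorta.

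The pair of collagen chains kept step across the 12 arrays. The ratio of Col4a1 (1373245_at) to Col4a2 lay between 1.54 and 2.56 on every array, a range of 0.73 in log2, while each gene by itself ranged over 3.89 and 3.87. Within that range the neonatal tissues did not overlap, at 1.74, 1.66 and 1.54 in valves and 2.39, 2.41 and 2.56 in aortas. The adult tissues overlapped. Of 14063 probe sets of other genes with a single symbol, Col4a2 was the one most like Col4a1. The measure was the root mean square difference of log2 signals, each centred on its mean over the 12 arrays, and it was 0.26 for Col4a2 against a median of 1.32 over all others. The next were the membrane-bound collagenase Mmp14 (0.38), the glypican Gpc3 (0.46), the fibrillar collagen chain Col5a1 (0.49) and the metalloprotease Adam19 (0.50). These are distances over arrays that share tissue and age, given as a description.

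**Figure D1:**
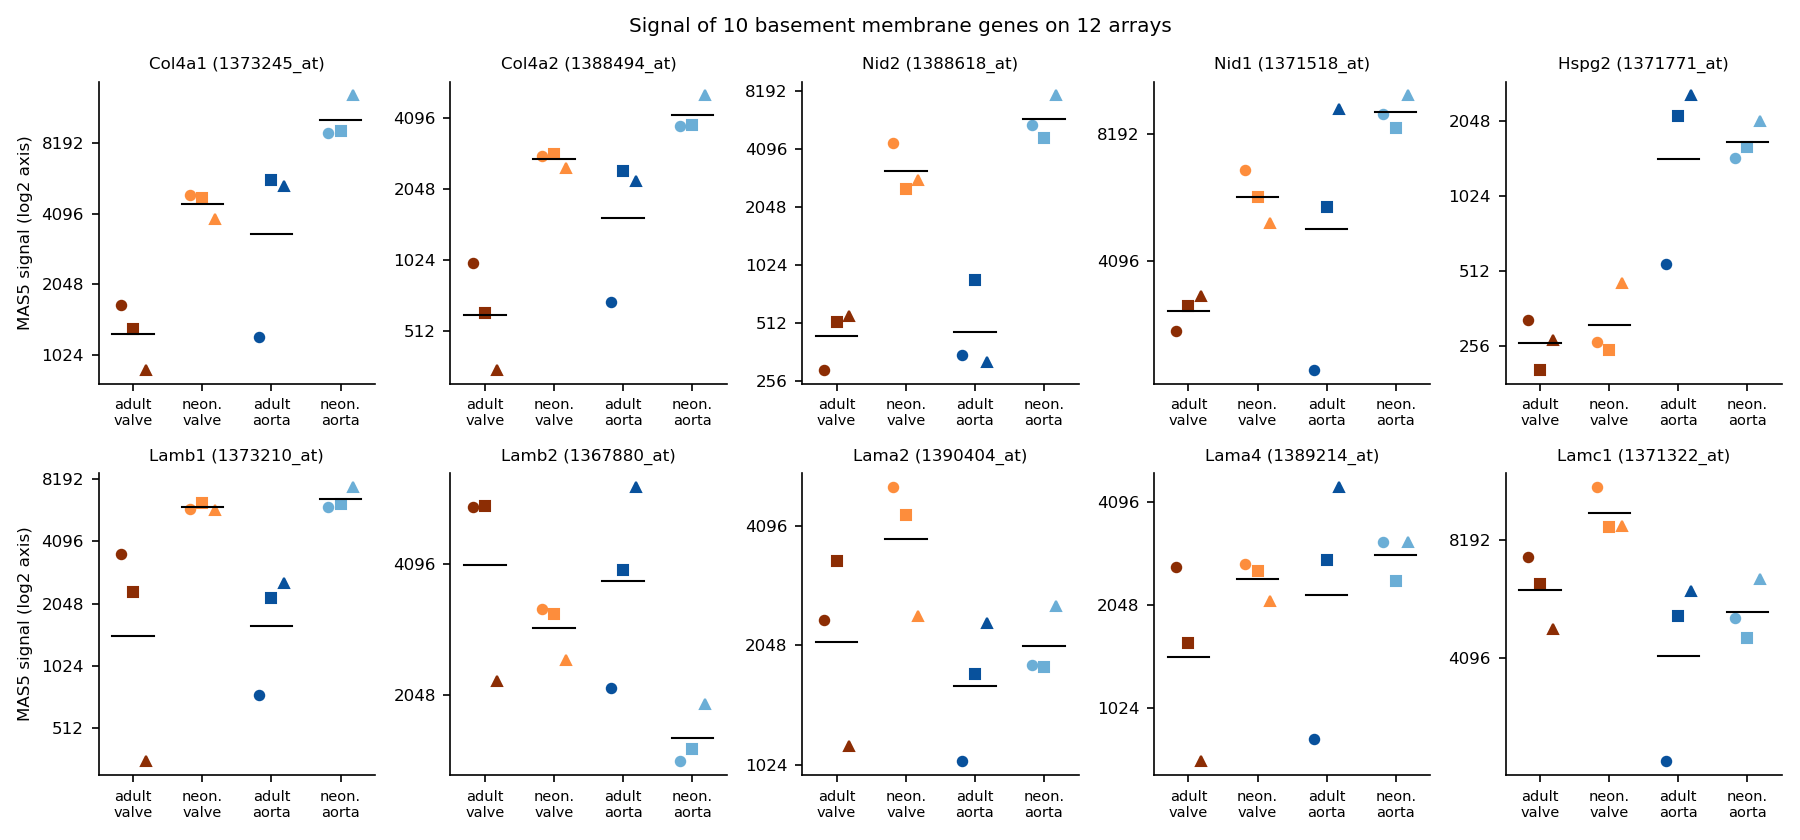
Signal of the brightest probe set of each of the 10 basement membrane genes on each of 12 arrays, on a log2 axis. Circles, squares and triangles stand for replicates 1, 2 and 3 and bars for the geometric mean of a group, with adult valve, neonatal valve, adult aorta and neonatal aorta from left to right. Nid2 averaged 441 in adult and 3168 in neonatal valves, and 459 in adult and 5834 in neonatal aortas, and the circle of the adult aorta lies low in most panels.

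Nid2, the gene of nidogen 2 (chr15:4507224-4562949), was the member with the largest difference by age in either tissue. Its signals were 294, 521 and 559.9 in adult valves, against 4388, 2559 and 2832 in neonatal valves. In the aorta they were 349, 862 and 322 in adult aortas, against 5477, 4654 and 7792 in neonatal aortas. The lowest neonatal array of either tissue stood well above the highest adult array. Nid2 fell 7.18-fold in adult valves (log2 difference -2.84 ± 0.40, limma adjusted p = 0.0024) and 12.7-fold in adult aortas (-3.67 ± 0.40, adjusted p = 6.7e-04). Both calls held when any single array was left out, with adjusted p no higher than 0.015 in valve and 0.0064 in aorta. Neonatal aorta arrays 2 and 3 carried almost none of the control RNA that is added before labelling. A block for these arrays left the first neonatal aorta array alone in its group, and the aorta difference was then -3.58.

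Nid1, the gene of the other nidogen (chr17:93069013-93142416), did not pass the test by age at either of its probe sets. The brighter one, 1371518_at, gave 2806, 3217 and 3390.5 in adult valves, against 6729, 5803 and 5035 in neonatal valves. In the aorta it gave 2278, 5496 and 9349.7 in adult aortas, against 9110.1, 8447 and 10079 in neonatal aortas. The valve groups did not overlap, and the third adult aorta array lay within the range of the neonatal aortas. Its log2 differences were -0.89 ± 0.39 in valve (adjusted p = 0.17) and -0.91 ± 0.39 in aorta (adjusted p = 0.19). The dimmer probe set, 1371032_at, differed by -0.12 ± 0.41 in valve (adjusted p = 0.88) and by -1.19 ± 0.41 in aorta (adjusted p = 0.11).

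Set against each other on the same array, the nidogens separated the ages. The ratio of Nid2 to Nid1 (1371518_at) was 0.105, 0.162 and 0.165 in adult valves, against 0.652, 0.441 and 0.562 in neonatal valves. It was 0.153, 0.157 and 0.0344 in adult aortas, against 0.601, 0.551 and 0.773 in neonatal aortas. The ages did not overlap in either tissue, and the mean log2 ratio of adults minus that of neonates was -1.95 in valve and -2.76 in aorta. A ratio of a pair of probe sets shows that they changed unequally and does not give the proportion of the proteins.

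The beta chains of laminin differed by age in opposite directions, although none of these differences passed the test with all arrays in the fit. Lamb1, the gene of the beta-1 chain (chr6:53562849-53630118), had signals of 3543, 2327 and 352 in adult valves, against 5899.5, 6314 and 5785 in neonatal valves. In the aorta it had 734, 2177 and 2562 in adult aortas, against 6042, 6190.4 and 7542 in neonatal aortas. All adult arrays lay below all neonatal arrays of their tissue. Its log2 differences were -2.07 ± 0.71 in valve (adjusted p = 0.092) and -2.04 ± 0.71 in aorta (adjusted p = 0.11), and neither passed. Lamb2, the gene of the beta-2 chain (chr8:118056899-118069090), had 2135, 3971 and 6172 in adult aortas, against 1446, 1542 and 1959 in neonatal aortas. In valves it had 5542, 5583 and 2211 in adult valves, against 3229, 3152 and 2464 in neonatal valves. Adult aortas were all above neonatal aortas, with 2 of the 3 adult valves above every neonatal valve and the third below all of them. Its differences were 1.19 ± 0.41 in aorta (adjusted p = 0.11) and 0.48 ± 0.41 in valve (adjusted p = 0.50).

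Without the first adult aorta array, Lamb2 rose by 1.60 in log2 in adult aortas (adjusted p = 0.021). With both doubtful arrays left out, Lamb1 fell in aorta (log2 difference -1.47, adjusted p = 0.0011) and in valve (-1.06, adjusted p = 0.0069). In the same setting Lamb2 rose in aorta (1.60, adjusted p = 0.0014) and in valve (0.93, adjusted p = 0.023). Each left-out array acts on the other tissue's age difference only through the spread that the fit estimates over all groups. The ratio of Lamb1 to Lamb2 on the same array was 0.639, 0.417 and 0.159 in adult valves, against 1.83, 2.00 and 2.35 in neonatal valves. It was 0.344, 0.548 and 0.415 in adult aortas, against 4.18, 4.01 and 3.85 in neonatal aortas. Every adult array lay below every neonatal array, the doubtful ones included, and the mean log2 ratio of adults minus that of neonates was -2.55 in valve and -3.23 in aorta.

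**Figure D2:**
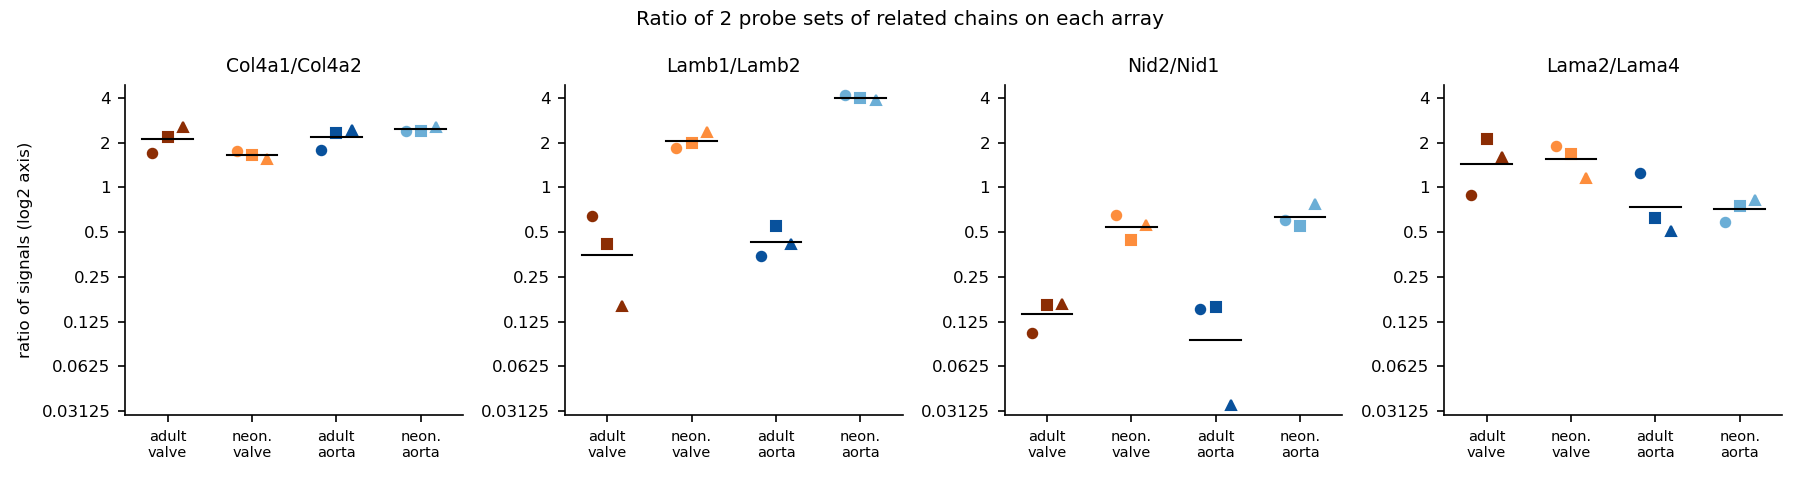
Ratios of the signals of paired basement membrane chains on the same array (Col4a1 to Col4a2, Lamb1 to Lamb2, Nid2 to Nid1 and Lama2 to Lama4), on log2 axes, with 1 point per array and a bar for the geometric mean of a group. Lamb1 to Lamb2 and Nid2 to Nid1 separate adults from neonates in both tissues, while Col4a1 to Col4a2 stays between 1.54 and 2.56.

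Neither alpha chain passed the test by age. Lama2 (chr1:19492126-20140056) encodes the alpha chain of the laminin of muscle basement membranes, and Lama4 (chr20:43946898-44087972) an alpha chain of endothelium and vessel wall. Lama2 ranged from 1145 to 3338 in adult valves, 2432 to 5139 in neonatal valves, 1047 to 2332 in adult aortas and 1808 to 2577 in neonatal aortas. Its log2 differences by age were -0.86 ± 0.43 in valve (adjusted p = 0.23) and -0.34 ± 0.43 in aorta (adjusted p = 0.69). The brighter probe set of Lama4, 1389214_at, ranged from 716 to 2657 in adult valves, 2109.96 to 2705 in neonatal valves, 832 to 4553 in adult aortas and 2414 to 3145 in neonatal aortas. The adult range of Lama4 in the aorta held the whole neonatal range. Its differences were -0.76 ± 0.57 in valve (adjusted p = 0.43) and -0.39 ± 0.57 in aorta (adjusted p = 0.74), the second with a 95% interval of -1.64 to 0.86. The dimmer probe set of Lama4, 1396066_at, ranged from 160.4 to 363 in adult valves, 144 to 279 in neonatal valves, 113 to 672 in adult aortas and 323 to 433 in neonatal aortas. By age it differed by 0.16 ± 0.59 in valve (adjusted p = 0.89) and -0.13 ± 0.59 in aorta (adjusted p = 0.93). Without the first adult aorta array the aorta differences of Lama4 turned to 0.31 by 1389214_at and 0.68 by 1396066_at.

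Lamc1, the gene of the gamma chain that most laminins share (chr13:67924872-68051986), had 2 probe sets, and neither passed the test by age. By 1370993_at it had 287, 316 and 168 in adult valves, against 546, 496 and 481 in neonatal valves. The age groups of the valve did not overlap, and the log2 difference was -1.03 ± 0.30 (adjusted p = 0.053). In the aorta it was -0.64 ± 0.30 (adjusted p = 0.22). The other probe set, 1371322_at, also had all adult valves below all neonatal valves, and its differences were -0.65 ± 0.34 in valve (adjusted p = 0.24) and -0.38 ± 0.34 in aorta (adjusted p = 0.55).

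Hspg2, the gene of perlecan (chr5:154960818-155061971), did not pass the test by age in either tissue. The log2 differences were -0.25 ± 0.50 in valve (adjusted p = 0.80, 95% interval -1.35 to 0.85) and -0.22 ± 0.50 in aorta (adjusted p = 0.84, 95% interval -1.32 to 0.88). Without the first adult aorta array the second turned to 0.48. Both intervals reach past a 2-fold lower level, so a change of that size could not be told from none.

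Counted over the 14 probe sets, 12 had a lower mean in adult than in neonatal valves and 2 a higher one. Of these, 4 fell (3 genes) and 0 rose, while 9.21% of all probe sets tested were called in this comparison and 5.21% were called lower. The groups did not overlap at 8, all lower, against 18.5% of all probe sets. The median log2 difference was -0.88 for the 14 probe sets and -0.04 for all tested. In the aorta 13 had a lower mean in adults and 1 (Lamb2) a higher one, and 1 (Nid2) fell and 0 rose, against 7.31% of all probe sets called, 5.37% lower and 1.94% higher. That share is close to the background. The aorta groups did not overlap at 7 probe sets lower and 1 higher, against 20.2% and 10.7% of all, with a median of -0.78 against -0.08. With both doubtful arrays left out, 8 probe sets were called in valve (7 lower and 1 higher) and 6 in aorta (5 lower and 1 higher), beside backgrounds of 15.4% and 19.0%.

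Whether the age difference of the valve departed from the age difference of the aorta (valve minus aorta) was tested for each probe set, and 0 of the 14 passed in limma. Of these, 0 had an unadjusted p under 0.05, and 0 passed with array weights or with both doubtful arrays left out. Over all probe sets 0.0593% were called, and 0.329% with both arrays left out. The values ran from -0.94 ± 0.95 for Col4a1 by 1372439_at (adjusted p = 0.74, 95% interval -3.02 to 1.14) to 1.07 ± 0.58 for Nid1 by 1371032_at (adjusted p = 0.50, 95% interval -0.21 to 2.35). For Nid2 the value was 0.82 ± 0.57 (adjusted p = 0.60, 95% interval -0.43 to 2.07). The intervals are wide enough to hold differences of more than 2-fold between the tissues, so these data do not show that the age differences were alike.

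**Figure D3:**
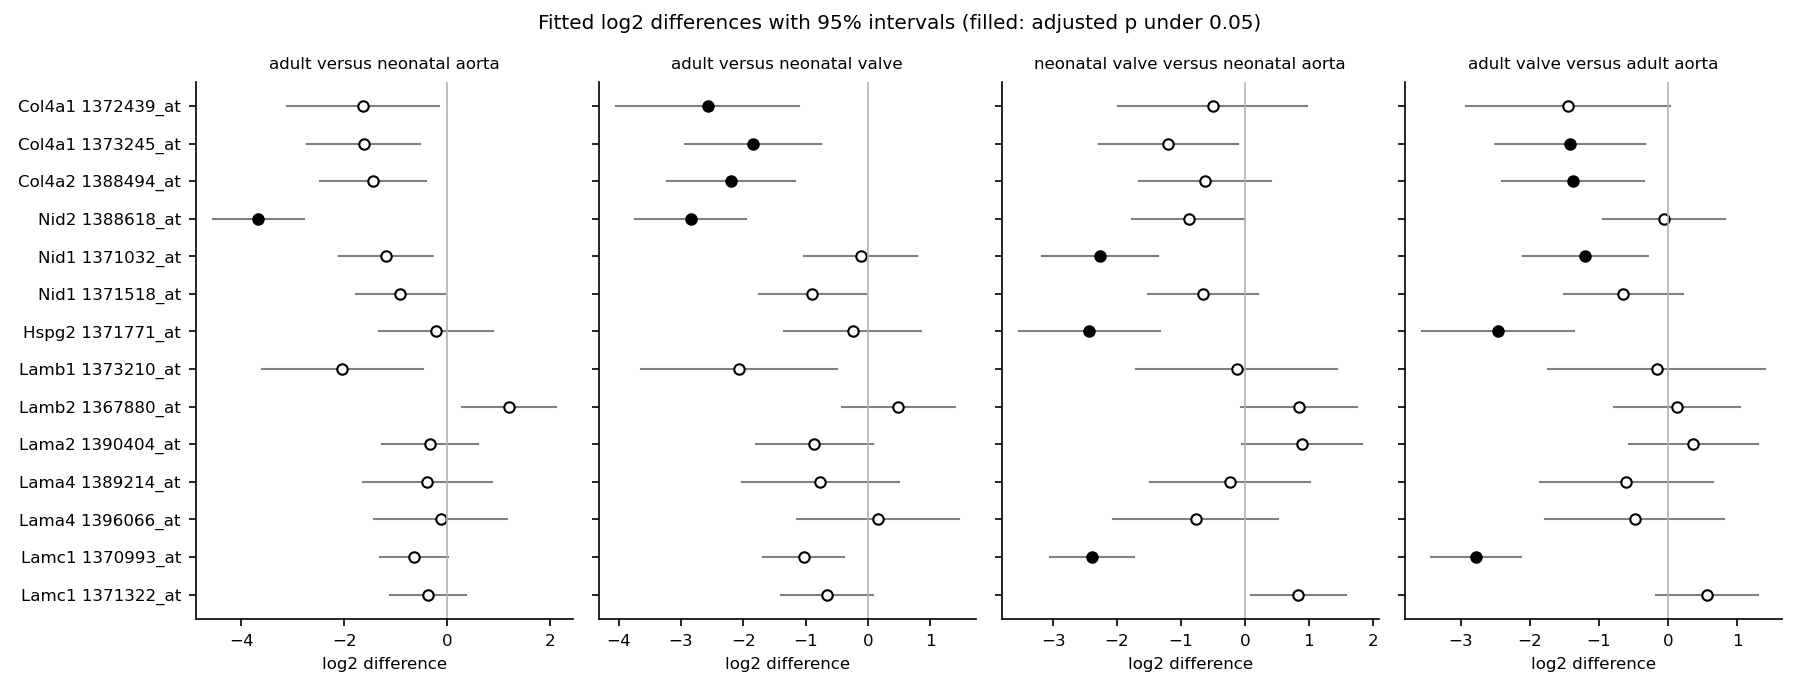
Log2 differences of the 14 probe sets in the 4 comparisons of groups, with lines for 95% intervals and filled points where the adjusted p was under 0.05. By age, Nid2 is filled in both tissues and the 3 type IV collagen probe sets in valve. Between tissues, Hspg2 and 1 probe set each of Lamc1 and Nid1 are filled at both ages.

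The only probe set of Hspg2, the perlecan gene, gave lower signals in valve than in aorta at both ages. The 3′ to 5′ ratios of control transcripts, given below, also separated the tissues, and their part in this difference was not tested. Hspg2 had signals of 267, 246 and 461 in neonatal valves, against 1451, 1607 and 2053 in neonatal aortas. It had 325, 206 and 270.1 in adult valves, against 545, 2141 and 2599 in adult aortas. Every valve array lay below every aorta array. Hspg2 was 5.41-fold lower in neonatal valves (log2 difference -2.44 ± 0.50, limma adjusted p = 0.0041) and 5.51-fold lower in adult valves (-2.46 ± 0.50, adjusted p = 0.0034). Without the first adult aorta array the adult difference was -3.17 (adjusted p = 1.2e-04). Fitting the 2 arrays without control RNA as a block left the first neonatal aorta array alone in its group. The neonatal difference was then -2.22.

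The probe sets of Lamc1 went opposite ways between the tissues. By 1370993_at, Lamc1 had signals of 546, 496 and 481 in neonatal valves, against 2172, 2482 and 3466 in neonatal aortas. In adults it had 287, 316 and 168 in valves, against 1203, 1902 and 2147 in aortas. By this probe set Lamc1 was lower in valve, with log2 differences of -2.39 ± 0.30 in neonates (adjusted p = 2.9e-04) and -2.78 ± 0.30 in adults (adjusted p = 1.3e-04), with no overlap. By 1371322_at it had 11193, 8811 and 8912 in neonatal valves, against 5176, 4588 and 6512 in neonatal aortas. In adults it had 7416, 6302 and 4838 in valves, against 2229, 5223 and 6070.4 in aortas. All neonatal valves were here above all neonatal aortas, and the adult groups overlapped. The differences were 0.84 ± 0.34 in neonates (adjusted p = 0.078) and 0.56 ± 0.34 in adults (adjusted p = 0.21).

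The direction of Lamc1 between the tissues is therefore not settled by these arrays. The signal of 1371322_at was 17.8 to 28.8 times that of 1370993_at on valve arrays and 1.85 to 2.83 times on aorta arrays, with no overlap. Within neonates the probe sets of Nid1 and Col4a1 also parted between the tissues, though by less. The ratio of 1371518_at to 1371032_at of Nid1 was 17.3 to 32.9 in neonatal valves and 5.41 to 12.6 in neonatal aortas, and that of 1373245_at to 1372439_at of Col4a1 was 0.731 to 0.766 in neonatal valves and 1.15 to 1.33 in neonatal aortas. Of 2748 genes with at least 2 probe sets tested, 8.52% had probe sets at least as far apart as those of Lamc1 (3.22 in log2) in the neonatal comparison, and 8.44% in the adult one (3.34). In the neonatal comparison 40.6% were at least as far apart as Nid1 (1.61) and 74.5% as Col4a1 (0.69), beside a median of 1.32. The position of the probe sets along the transcript was not used here. The 3′ to 5′ ratio of control transcripts also separated the tissues. For beta-actin it averaged 9.92 on the 6 valve arrays (7.24 to 13.99) and 1.66 on the 6 aorta arrays (1.40 to 2.59), with p = 0.0022 in an exact two-sided permutation test, the smallest p that 6 against 6 allows. For GAPDH it averaged 2.90 on valve and 1.00 on aorta arrays (exact p = 0.0022). For the added control RNA dap it averaged 19.3 on the 6 valve arrays and 1.98 on the 4 aorta arrays that carried it (exact p = 0.0095). The part of these ratios in the tissue differences of Lamc1, Hspg2 and Nid1 was not tested.

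**Figure D4:**
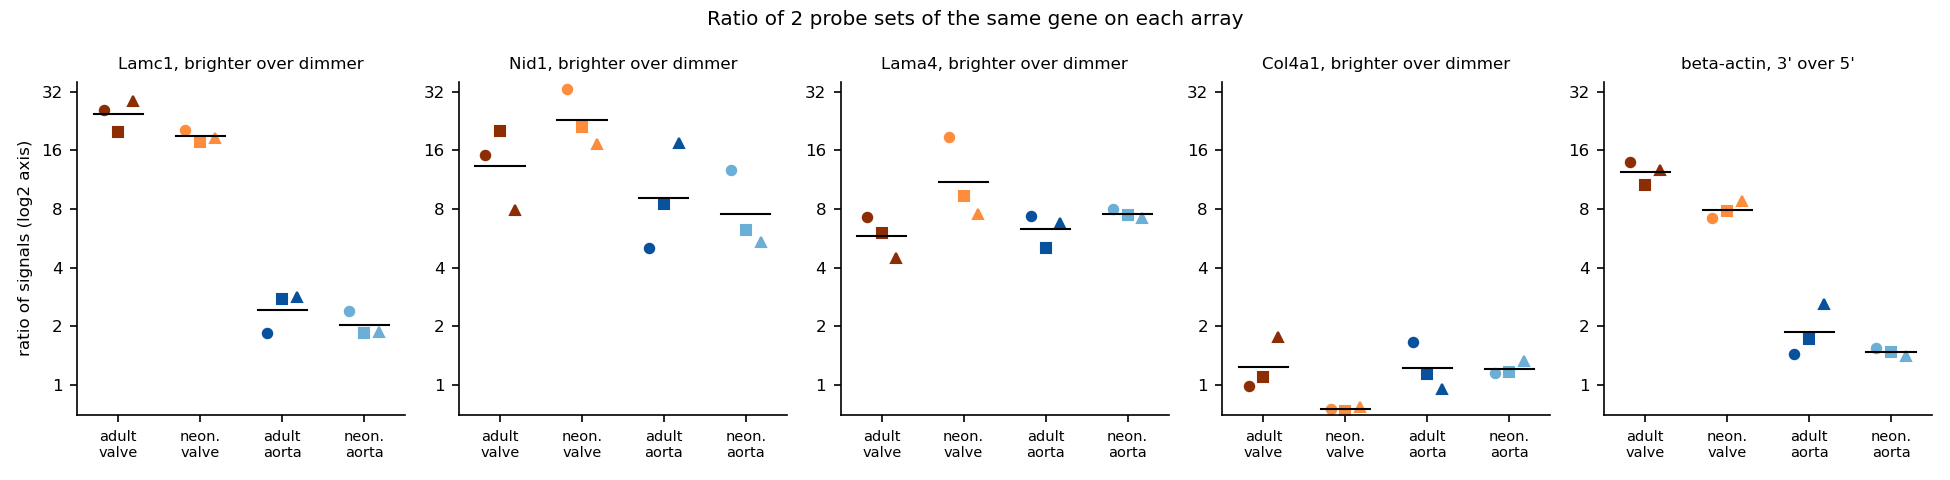
Ratio of the signals of the brighter to the dimmer probe set of the 4 genes with 2 probe sets (Lamc1, Nid1, Lama4 and Col4a1), on log2 axes, with 1 point per array and a bar for the geometric mean of a group. The Lamc1 ratio is 17.8 to 28.8 on valve arrays and 1.85 to 2.83 on aorta arrays, while those of the other 3 genes overlap between tissues with the ages pooled.

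With all arrays in the fit, Nid1 passed between the tissues at its dimmer probe set only. By 1371032_at it had 204, 276 and 291 in neonatal valves, against 720.5, 1361 and 1864 in neonatal aortas. In adults it had 186, 161 and 429.8 in valves, against 449, 646 and 532 in aortas. The valve arrays were below the aorta arrays at each age. The differences were -2.27 ± 0.41 in neonates (adjusted p = 0.0022) and -1.20 ± 0.41 in adults (adjusted p = 0.041). By 1371518_at they were -0.66 ± 0.39 (adjusted p = 0.22) and -0.65 ± 0.39 (adjusted p = 0.22). Without the first adult aorta array the adult difference of 1371518_at was -1.20 and passed (adjusted p = 0.0031). The adult call of 1371032_at failed when adult aorta 2, adult aorta 3, adult valve 1 or adult valve 2 was left out (adjusted p = 0.073 to 0.13). With the 2 arrays without control RNA as a block, the first neonatal aorta array was alone in its group. The neonatal difference of 1371032_at was then -1.50. With arrays centred on their medians the adult difference of 1371032_at was -0.81 (adjusted p = 0.11).

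At 2 of its 3 probe sets type IV collagen was lower in adult valves than in adult aortas, with groups that overlapped at all 3. Col4a2 differed by -1.37 ± 0.47 (adjusted p = 0.039) and Col4a1 by -1.42 ± 0.50 (1373245_at, adjusted p = 0.043) and -1.45 ± 0.67 (1372439_at, adjusted p = 0.11). The first adult aorta array lay among the adult valves, and the other adult aortas lay above all of them. Without it the differences were -1.97, -2.15 and -2.40 (adjusted p = 0.0020, 4.0e-04 and 0.0015). Without the third adult valve array none of the 3 passed (adjusted p = 0.14, 0.13 and 0.33). With arrays centred on their medians Col4a2 (-0.98, adjusted p = 0.12) and Col4a1 by 1373245_at (-1.03, adjusted p = 0.12) also did not pass. In neonates the differences were -0.62 ± 0.47 for Col4a2 (adjusted p = 0.34) and -1.20 ± 0.50 and -0.51 ± 0.67 for Col4a1 (adjusted p = 0.087 and 0.60). None of these passed, although every neonatal valve array lay below every neonatal aorta array at all 3 probe sets.

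The remaining members did not pass between the tissues. Nid2 differed by -0.88 ± 0.40 in neonates (adjusted p = 0.12) and -0.06 ± 0.40 in adults (adjusted p = 0.92). Lamb1 differed by -0.13 ± 0.71 (adjusted p = 0.91) and -0.17 ± 0.71 (adjusted p = 0.87), and Lamb2 by 0.84 ± 0.41 (adjusted p = 0.14) and 0.13 ± 0.41 (adjusted p = 0.83). Lama2 differed by 0.89 ± 0.43 (adjusted p = 0.13) and 0.37 ± 0.43 (adjusted p = 0.53). For the brighter probe set of Lama4 the values were -0.23 ± 0.57 (adjusted p = 0.79) and -0.60 ± 0.57 (adjusted p = 0.43), and for the dimmer one -0.77 ± 0.59 (adjusted p = 0.34) and -0.48 ± 0.59 (adjusted p = 0.55). Centring the arrays on their medians added 0.33 to every neonatal and 0.39 to every adult difference between the tissues, which turned the sign of Lamb1 at both ages, of Nid2 in adults and of Lama4 (1389214_at) in neonates.

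In the neonatal comparison of the tissues 3 of 14 probe sets passed, all lower in valve, while 32.6% of all probe sets tested were called. The groups did not overlap at 9 probe sets lower and 2 higher, against 33.5% and 26.2% of all. In the adult comparison 5 of 14 passed, all lower in valve, against 37.1% of all, and groups did not overlap at 3, all lower, against 23.2%. The share of members called was below the background in neonates and close to it in adults. All their calls were in the lower direction, which took 19.3% of all probe sets in neonates and 19.9% in adults. The medians were -0.64 for the members against -0.09 for all in neonates, and -0.62 against -0.05 in adults. Without the first adult aorta array 9 of 14 passed in adults (background 38.0%), among them both probe sets of Lama4 (-1.30 and -1.29), and without the third adult valve array 3 passed (background 31.8%). With both left out 11 passed in neonates (background 45.4%) and 7 in adults (background 36.4%). Neither array is part of the neonatal comparison, on which they act only through the spread estimated over all groups. The adipocyte markers (5 on the array, 4 of them at or below the threshold on all neonatal valve arrays), of another cell type with a basement membrane, summed to 547 to 966 in neonatal valves and 21501 to 41364 in neonatal aortas, and to 233 to 1286 in adult valves and 3658 to 60962 in adult aortas. Their part in these differences was not tested.

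Of 22 other basement membrane components, 16 were tested. In adult aortas 3 fell and 1 rose, with a median of -0.27, while 7.31% of all probe sets were called. Lama5, a laminin alpha chain of endothelium, fell (-1.88 ± 0.34, adjusted p = 0.0093), as did the heparan sulphate proteoglycan agrin, Agrn (-0.94 ± 0.20, adjusted p = 0.019), and hemicentin 1, Hmcn1 (adjusted p = 0.020). Hmcn1 had signals of 387, 562 and 1532 in adult valves, 1531, 1335 and 892 in neonatal valves, 154, 123 and 6.52 in adult aortas and 1139, 909 and 1254 in neonatal aortas. The gamma chain Lamc3 rose (1.92 ± 0.49, adjusted p = 0.038). In adult valves only Egflam, the gene of pikachurin, passed and fell (-1.82 ± 0.41, adjusted p = 0.022), with a median of -0.05 over the list and 9.21% of all probe sets called. In neonatal valves against neonatal aortas 3 were lower, Ntn1 (-2.57 ± 0.34, adjusted p = 4.0e-04), Lama5 (-1.16 ± 0.34, adjusted p = 0.024) and Tinagl1 (-1.52 ± 0.52, adjusted p = 0.043). These 3 of 16 stand against 32.6% of all probe sets called, a smaller share. In adult valves against adult aortas Ntn1 was lower (-2.07 ± 0.34, adjusted p = 0.0011) and Hmcn1 higher (adjusted p = 0.011), which is 2 of 16 against 37.1% of all. Some of these signals were at or below the filter threshold of 171.944, where the size of a difference is uncertain. That held for Hmcn1 and P4ha3 (a gene of collagen folding) on all adult aorta arrays, Lamc3 on all neonatal aorta arrays, Egflam on all adult valve arrays and Ntn1 on all neonatal valve arrays.

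Of 15 receptors of the basement membrane, 13 were tested, and 0 passed by age in limma in either tissue, with medians of 0.08 in valve and 0.22 in aorta, beside 9.21% and 7.31% of all probe sets called. Between neonatal tissues the dystrophin complex gene Sgce (-1.49 ± 0.33, adjusted p = 0.0056) and the collagen receptor Ddr1 (-0.90 ± 0.31, adjusted p = 0.047) were lower in valve. Between adult tissues Ddr1 (-1.47 ± 0.31, adjusted p = 0.0044) and Itga7, a laminin-binding integrin of muscle (-1.99 ± 0.61, adjusted p = 0.024), were lower in valve. The laminin-binding integrin Itga6 was higher in adult valve (1.85 ± 0.64, adjusted p = 0.041), with groups that overlapped. The 2 of 13 called in neonates and 3 of 13 in adults are smaller shares than the 32.6% and 37.1% of all probe sets.

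Of 15 genes of collagen folding and export, 13 were tested. P4ha3, a subunit of collagen prolyl 4-hydroxylase, had signals of 199, 104 and 112 in adult valves, against 902, 791 and 650.5 in neonatal valves. In the aorta it had 76, 86.5 and 40.3 in adults, against 1979, 2213 and 3078 in neonates. It fell with age in valve (-2.55 ± 0.34, adjusted p = 0.0019) and in aorta (-5.21 ± 0.34, adjusted p = 1.0e-04). It was the only one of this list called by age in valve, where the median was -0.09. In adult aortas P3h1 (-1.89 ± 0.37, adjusted p = 0.013) and Fkbp10 (-2.02 ± 0.51, adjusted p = 0.037), which modify and fold collagen chains, fell as well, with a median of -0.76. In neonatal valves against neonatal aortas 3 were lower, among them the collagen chaperone Serpinh1 (-1.30 ± 0.43, adjusted p = 0.039). In adult valves against adult aortas 3 were higher, among them P4ha2 (1.37 ± 0.37, adjusted p = 0.014) and the collagen export gene Mia3 (0.88 ± 0.20, adjusted p = 0.0061), and Ppib was lower (-0.60 ± 0.21, adjusted p = 0.047). The list had 1 of 13 called by age in valve and 3 of 13 in aorta, beside 9.21% and 7.31% of all probe sets, and 3 of 13 in neonates and 4 of 13 in adults between the tissues, beside 32.6% and 37.1%. None of the 3 lists had a gene called for the difference of age differences.

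The members did not share 1 pattern over the arrays. Among the 91 pairs of member probe sets the closest were those of Col4a2 with either Col4a1 probe set (0.26 and 0.32 in root mean square log2), followed by Lamc1 (1371322_at) with Lama2 (0.34). For Lamc1 by 1371322_at, the 5 closest probe sets of other genes were Fbxo21 (0.19), Nisch (0.22), Rras2 (0.22), Pcm1 (0.24) and Zc3h7b (0.25), against a median of 0.86 over all others, and Lama2 was the 57th. Lamb2 lay farther from Col4a1 (1.60) than the median probe set did (1.32).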

How the data were processed

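Tissue RNA was purified with Trizol and then RNeasy columns and labelled by in vitro transcription, per the labels' protocols. The deposited intensity values, 1 signal per probe set and array, come from the authors' use of MAS5 in Affymetrix Expression Console, per the submitters' processing notes. The version of either program is not given in the sources used here, nor is the target of the scaling. The trimmed mean was 500.1 to 500.2 on all 12 arrays and the median signal was 133 to 169 on valve arrays and 182 to 202 on aorta arrays.

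Of 31099 probe sets, 57 controls were left out. Signals under 1 were set to 1 before log2 was taken, and nothing else was normalized. A probe set was tested if at least 3 arrays exceeded 171.944 (7.43 in log2), the median of the whole table, which left 18552 (59.8%). In R 4.3.3, limma 3.58.1 fitted 1 mean for each group over the 12 arrays together (eBayes with a trend, 8 residual degrees of freedom). A probe set was called at a two-sided Benjamini-Hochberg adjusted p under 0.05 over all probe sets tested. Exact permutation tests used scipy 1.17.1. The fit was also run on simulated data, with independent normal noise and the same spread of a probe set in every group. That setting holds no outlying arrays, so it does not cover arrays such as the first adult aorta array. The number of arrays, 3 per group, limits the precision.

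The members, the lists and the tests were chosen with earlier results of these data known. Every member probe set is reported. Of each list, up to 4 genes per comparison, by smallest adjusted p, were eligible to be named, and a gene was represented by its brightest probe set. Gene places and promoter windows are RefSeq's (GRCr8), matched by gene ID, and windows were found for 8 of the 10 members. Alternatives were an offset of 32, quantile normalization, centring on the median, no filter, a replicate block, array weights, fits of the groups compared alone, the 2 arrays without added control RNA as a block, and arrays left out.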

Additional observations from a re-analysis of the deposited data

How the results depend on the processing

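Member probe sets called (1 by age in aorta, 4 by age in valve, 3 between neonatal tissues, 5 between adult tissues, 0 for valve against aorta in the age difference) ranged over 1 to 2, 1 to 3, 3 to 3, 2 to 9 and 0 to 0 when each array was left out. All probe sets called ranged over 431 to 2485 (1357 with all arrays), 662 to 1514 (1709), 4101 to 5075 (6043), 5692 to 7048 (6891) and 1 to 37 (11). The 431 came without neonatal aorta 3, the 2485 without adult aorta 1 and the 662 without neonatal valve 1. With array weights the member counts were 6, 7 and 9 in the first 3 comparisons, and all probe sets 4763, 2799, 9706 and, for the difference, 165. With adult aorta 1 and adult valve 3 both left out (chosen after the data were seen) member counts were 6, 8 and 11, and all probe sets 3530 and 2858 by age and 61 for the difference. Fits of the groups compared alone gave 811 in aorta by age, 3646 between adult tissues, and 11 members between neonatal and 2 between adult tissues, and they cannot be made for the difference, which uses all groups. The 2 arrays without control RNA as a block gave 69 in aorta by age, 1416 between neonatal tissues with 1 member, and 1 for the difference. Centring on the median left 2 members between adult tissues. It moved the share of higher calls among all probe sets from 43.4% to 56.6% by age in valve, from 40.7% to 63.1% between neonatal and from 46.5% to 70.1% between adult tissues. Replicate numbers did not pair the samples: deviations of same-numbered arrays correlated at -0.314 to 0.237, and 3 of 12 arrays were closest to their own number. The replicate block gave 2 members by age in valve, 3 between adult tissues and 1 probe set for the difference, and changed no other count of calls by over 1.5 times.

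Directions turned only at member probe sets that had not passed. By age in aorta these were Lama4 at 1389214_at (0.026 with weights, 0.31 with both arrays out, -0.92 to 0.31 with single arrays out) and at 1396066_at (0.48, 0.68, -0.60 to 0.68), Hspg2 (0.28, 0.48, -0.64 to 0.48) and Lamc1 at 1371322_at (0.069 with both out, -0.65 to 0.069). By age in valve they were Nid1 at 1371032_at (0.00023 with quantile normalization, -0.56 to 0.15 with single arrays out), Lama4 at 1396066_at (-0.16 to 0.48) and Hspg2 (-0.42 to 0.034). Between neonatal tissues, centring turned Lama4 at 1389214_at (0.10) and Lamb1 (0.20). Between adult tissues Lamb1 turned with centring (0.22), with both arrays out (0.28) and with single arrays out (-0.82 to 0.84), Nid2 with quantile normalization (0.023), with centring (0.33) and with single arrays out (-0.31 to 0.40), and Lamb2 with single arrays out (-0.28 to 0.57). Calls of Nid2 by age, of Hspg2 and Lamc1 (1370993_at) between tissues and of Nid1 (1371032_at) between neonatal tissues held when any single array was left out, while the other calls of members each failed without at least 1 array. The causes of these changes between settings were not tested.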
